A study of Mus musculus with 10 samples.

Results

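The 440 autosomal CpG-island regions described here were those whose DNA methylation signal varied most among arrays of the same diet in mouse hemibrain, out of 8809 regions measured. A region was a cluster of at least 3 array probes with starts no more than 500 bp apart, and its value on an array was the mean of its probes. Each diet's mean was subtracted from a region's values, the standard deviation (SD) of what remained was pooled over the 10 arrays, and the 5% of regions with the largest SD were taken. The regions were thus selected on their measured spread within diets, and that spread is given below only to describe them, with no test. Regions just inside the threshold had SDs of 0.3085 to 0.3089 and regions just outside it had SDs of 0.308 to 0.3083, so the threshold fell within a continuous range.

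The study asked how the brain responds to the balance of n-3 and n-6 fatty acids in food. Left hemibrains came from male C57BL/6j mice, an inbred strain, which were fed 1 of 3 diets of equal energy content for 24 weeks from an age of 3 weeks. The ERD group (4 arrays) received an n-3 enriched diet with an n-3:n-6 ratio of 7:1. The BLD group (3 arrays) received a balanced diet at 1:1, and the STD group (3 arrays) the standard laboratory diet at 1:6. The sample titles give each array its own identifier but do not state whether it names an animal, and the spread within a diet is a spread between samples, which may be technical. Replicates were numbered in the order of deposition.

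Methylation was measured by MeDIP-chip. In this assay an antibody against 5-methylcytosine pulls down methylated DNA fragments, and the pulled-down DNA and total input DNA of the same sample are labelled with different dyes and hybridised to 1 array. Cy5 marked the immunoprecipitated DNA and Cy3 the input throughout, without dye swaps. A positive log2 ratio stands for more immunoprecipitated DNA than on the median probe of that array. CpG islands are DNA segments in which the dinucleotide CpG is frequent, and many promoters lie in one. In most tissues the bulk of them are free of methylation, and a minority, such as those on the inactive X chromosome, at imprinted genes or at genes silenced outside the germ line, carries it. The ratios were centred on each array's median and scaled to a common spread, and they rank regions within an array but are not percentages of methylation. No gene is paired with a probe in these files, so regions are given by position on the mouse build mm9, and no marker gene could be used to check the labelled tissue. No sequence is shown, since no genome of that build was at hand.

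Most of the variable regions were regions of high methylation signal. The median level of the 440 regions, averaged over all arrays, was 0.56 on the log2 scale, against -0.06 over all 8809 regions. Of the 440, 318 (72.3%) lay among the highest 10% of regions by level, a group of 881 regions with mean log2 ratios of 0.25 to 1.29. Put the other way, 36.1% of those 881 regions were variable ones, while each of the other 9 level classes of equal size gave 5 to 26 of them, or 0.568% to 2.95% of the class. On all 10 arrays 231 of the variable regions (52.5%) lay above the array's median, compared with 9.44% of all regions, and 6 lay below it on all 10. The lowest class, with mean log2 ratios from -0.90 to -0.33, held 26 variable regions.

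**Figure D1:**
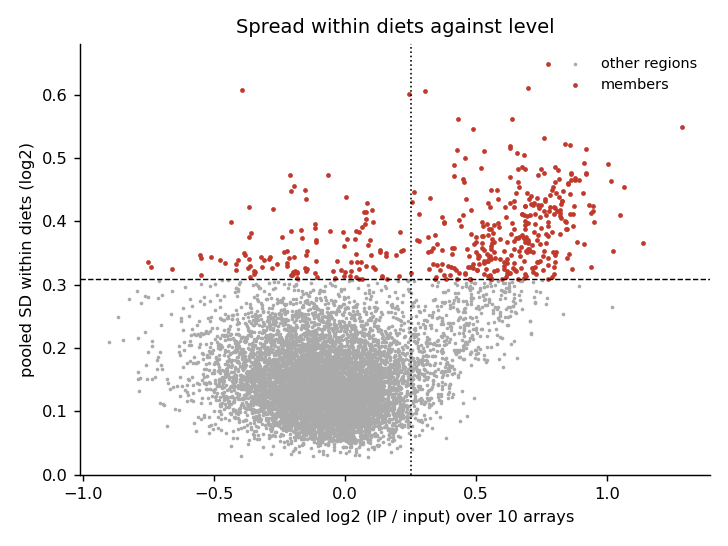
Pooled SD within diets (vertical axis, log2 units) against the mean scaled log2 ratio of immunoprecipitated to input DNA over the 10 arrays (horizontal axis); each point is 1 region, red points are the 440 variable regions and grey points the others. The dashed line marks the SD threshold of 0.3085 and the dotted line the lower end of the highest 10% by level, to the right of which 318 of the red points lie.

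Within the diets, the spread lay mainly in ERD and STD. The median SD of the variable regions was 0.40 in ERD (4 arrays), 0.15 in BLD (3 arrays) and 0.44 in STD (3 arrays), against 0.12, 0.11 and 0.15 over all regions. BLD had the smallest SD of the 3 diets in 341 of the 440 regions (77.5%), compared with 44.5% of all regions. BLD had the largest SD of the 3 diets in 20 of the 440, so the description "variable within a diet" applied mainly to ERD and STD. The diets also differed in how their arrays were placed on slides, as given further on.

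The arrays of ERD and STD fell into high and low ones. Across the 440 regions the median log2 ratio was 0.29, 1.08, 0.33 and 0.75 on ERD replicates 1 to 4. It was 0.59, 0.68 and 0.57 on BLD replicates 1 to 3, and 0.27, 0.77 and 0.22 on STD replicates 1 to 3. ERD replicates 2 and 4 and STD replicate 2 were therefore above every BLD value, and ERD replicates 1 and 3 and STD replicates 1 and 3 were below every BLD value. Over all 8809 regions the array medians differed little, from -0.08 to -0.04. The upper end of all regions differed, with 95th percentiles of 0.36, 0.85, 0.38 and 0.64 in ERD, 0.53, 0.57 and 0.51 in BLD, and 0.38, 0.59 and 0.37 in STD.

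**Figure D2:**
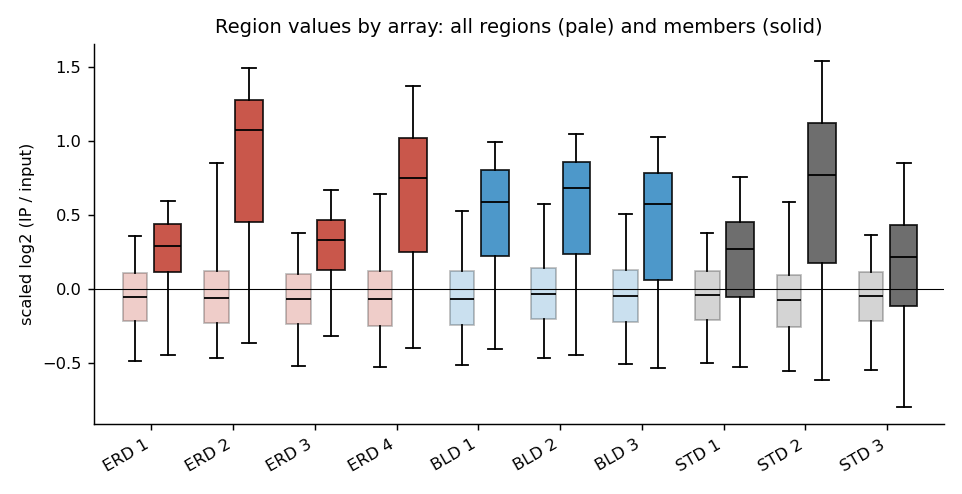
Scaled log2 ratios of immunoprecipitated to input DNA (vertical axis) on each of the 10 arrays (horizontal axis), for all 8809 regions (pale boxes) and the 440 variable regions (solid boxes); boxes span the quartiles with the median as a line, and whiskers reach the 5th and 95th percentiles. The solid boxes are highest on ERD replicates 2 and 4 and STD replicate 2, with medians of 1.08, 0.75 and 0.77, and lowest on STD replicate 3, with 0.22, while the medians of the pale boxes stay between -0.08 and -0.04.

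The same arrays were high in most of the variable regions. ERD replicate 2 was above its diet's mean in 370 of the 440 regions (84.1%), ERD replicate 4 in 314 (71.4%) and STD replicate 2 in 372 (84.5%). Over all regions these shares were 57.0%, 47.8% and 44.2%. The low arrays exceeded their diet's mean in few regions, with 68 for ERD replicate 1, 79 for ERD replicate 3, 100 for STD replicate 1 and 86 for STD replicate 3. Of the summed squared deviations over all 440 regions, ERD replicate 2 carried 20.3% and STD replicate 2 carried 18.4%, while the 3 BLD arrays carried 2.5% to 4.49% each. The order in which ERD replicates 2 and 4 exceed ERD replicates 1 and 3, and STD replicate 2 exceeds both other STD arrays, was chosen after the values were seen. It held in 306 of the 440 regions (69.5%), compared with 13.4% of all regions, and in 294 of the 318 variable regions of high level.

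The rule used the squared deviations of these regions, so regions and probes that it had not picked were looked at next. Among the 563 regions of equally high level class that were not variable enough to be taken, 355 (63.1%) had the same order of arrays. Clusters of only 1 or 2 usable probes never entered the rule, and of the 1235 such clusters with a high level 488 (39.5%) had it, against 12.7% of all such clusters. X-linked regions had also been left out, and 15 of the 30 with a high level had the order, against 13.8% of all 225 X-linked regions. The order was thus more frequent at high signal in each of these groups, and it was not limited to the 440 regions. All of these counts come from the same 10 arrays.

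The size of the deviation was larger in the variable regions than in these other groups. On ERD replicates 1 to 4, the variable regions of high level deviated from their diet mean by -0.36, 0.46, -0.31 and 0.21 on average, and the 563 other regions of high level by -0.17, 0.21, -0.14 and 0.10. On STD replicates 1 to 3 the corresponding values were -0.24, 0.45 and -0.21 in the variable regions and -0.07, 0.16 and -0.09 in the others. The signs were the same on all 7 arrays, and the deviations of the others were smaller. Clusters of 1 or 2 probes deviated by -0.17, 0.24, -0.14 and 0.07 in ERD and by -0.11, 0.18 and -0.08 in STD, and X-linked regions of high level by -0.16, 0.15, -0.11 and 0.11 and by -0.08, 0.18 and -0.10. On the BLD arrays the averages stayed between -0.05 and 0.07 in all 4 groups.

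**Figure D3:**
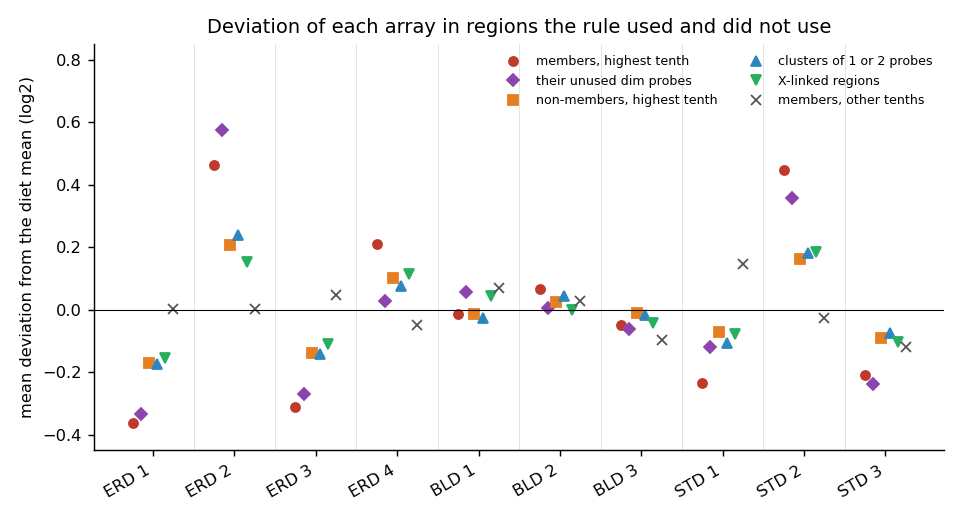
Mean deviation from the diet mean (vertical axis, log2) on each array (horizontal axis) for 6 groups of regions, probes or clusters, 1 symbol each. In 5 of the groups ERD replicate 2 and STD replicate 2 lie above 0 and ERD replicates 1 and 3 and STD replicate 3 below it, while the 122 variable regions outside the highest 10% by level (crosses) stay between -0.12 and 0.15.

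A correlation with an outside reference described the same pattern region by region. The reference was the mean deviation of the clusters of 1 or 2 probes at high level on each of the 10 arrays. The median Pearson correlation of a region's deviations with it was 0.82 over the 440 variable regions and 0.01 over all regions, across 10 arrays that share libraries with the reference. It exceeded 0.7 in 299 variable regions (68.0%) and in 11% of all regions, and it was between -0.3 and 0.3 in 35 of the 440. By level, the median correlation was -0.16 in the lowest 10% of all regions and 0.81 in the highest 10%.

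Probes that lay in the variable regions or within 500 bp of their ends, but had been too dim for the rule, varied as well. There were 705 such probes in 345 of the 440 regions, and 343 regions gave values for them. The median SD within diets of these left-out probes was 0.40 in variable regions and 0.28 in the other regions. Where a region had 1 left-out probe, so that the number of probes was equal, the medians were 0.50 and 0.39. The correlation over the 10 arrays of their deviations with those of the region's own bright probes was positive in 289 of the 343 regions (84.3%). Its median was 0.55. In the other regions it was positive in 55.2%, with a median of 0.06. They showed the high and low order of arrays in 144 of the 343 regions (42.0%), against 6.80% of 7280 other regions. In variable regions of high level they deviated on average by -0.33, 0.57, -0.27 and 0.03 on ERD replicates 1 to 4. On STD replicates 1 to 3 they deviated by -0.12, 0.36 and -0.24. ERD replicate 4 was thus hardly high in these probes, where the bright probes had 0.21. For the same 440 regions, the difference between the median SDs of left-out probes was 0.07 in place of 0.13 without ERD replicate 2. Without both ERD replicate 2 and STD replicate 2 it was 0.03. With normexp background correction it was 0.0039, but for the regions taken under normexp, where only 65 of the 440 were found again. That value therefore does not describe the 440 regions.

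In most variable regions the spread was larger in the immunoprecipitated channel. The median SD of the centred log2 Cy5 intensity was 0.43 in the variable regions and 0.24 in all regions, while that of the Cy3 intensity was 0.21 and 0.18. The Cy5 SD exceeded the Cy3 SD in 403 of the 440 regions (91.6%) and in 79.1% of all regions. In variable regions of high level, Cy5 deviated by -0.36, 0.58, -0.30 and 0.08 on ERD replicates 1 to 4 and by -0.10, 0.39 and -0.28 on STD replicates 1 to 3. The Cy3 deviations on the 10 arrays stayed between -0.07 and 0.09. The lowest, -0.07, was that of ERD replicate 4. On that high array Cy5 and Cy3 thus deviated by nearly the same amount in opposite directions. The Cy5 deviations of the BLD arrays, 0.19, 0.07 and -0.26, exceeded their ratio deviations of -0.02, 0.07 and -0.05 on replicates 1 and 3. The channel values, unlike the ratios, were not scaled to a common spread.

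**Figure D4:**
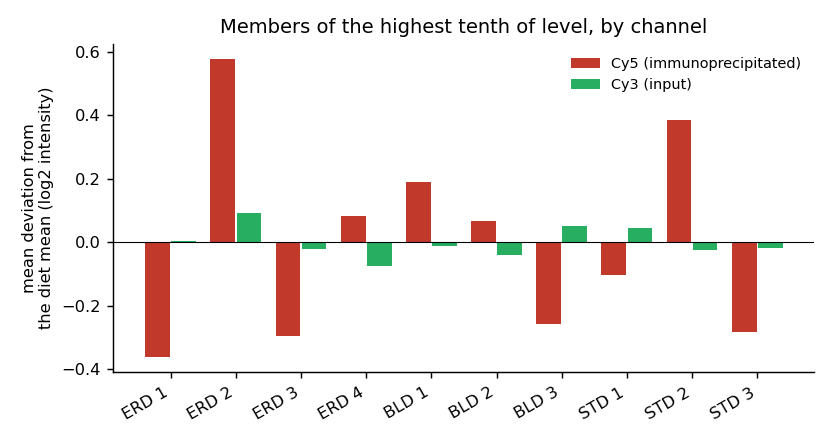
Mean deviation from the diet mean of log2 intensity (vertical axis) in the 318 variable regions of high level, for Cy5 (immunoprecipitated DNA, red bars) and Cy3 (input DNA, green bars) on each array (horizontal axis). The Cy5 bars reach 0.58 on ERD replicate 2 and -0.36 on ERD replicate 1, and the Cy3 bars stay between -0.07 and 0.09.

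Several technical values of the arrays differed, and their part in the pattern was not tested. The 10 arrays lay on 5 slides of 2 arrays, with ERD on slides 1 and 2, BLD replicates 1 and 2 on slide 3, BLD replicate 3 with STD replicate 1 on slide 4, and STD replicates 2 and 3 on slide 5. Before scaling, the median absolute deviation of the log2 ratios was 0.29 to 0.35 in ERD, 0.18 to 0.35 in BLD and 0.16 to 0.26 in STD. The median raw Cy5 intensity was 191.5, 105, 223 and 139 on ERD replicates 1 to 4, and 533, 74.5 and 76 on STD replicates 1 to 3. BLD replicates 1 to 3 had 75.5, 99.5 and 263. Both high ERD arrays thus had lower raw Cy5 medians than both low ones, while STD replicates 2 and 3 had nearly the same Cy5 median. The median raw Cy3 intensity was 173, 223, 212 and 177.5 on ERD replicates 1 to 4. It was 172.5, 170.5 and 235.5 on BLD replicates 1 to 3, and 248, 158.5 and 123 on STD replicates 1 to 3. Raw Cy5 was thus below raw Cy3 on ERD replicates 2 and 4 and STD replicate 2, and also on BLD replicates 1 and 2 and STD replicate 3. It was above raw Cy3 on the other arrays. On single arrays 76.4% to 94.7% of probes rose well above background in Cy5 and Cy3, and 51889 of 88737 (58.5%) did so on all 10.

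High and low arrays shared slides but differed in position on them. ERD replicates 2 and 4 lay at position 2 and ERD replicates 1 and 3 at position 1, so in ERD position and the high arrays cannot be told apart. STD replicate 2 lay at position 1 and STD replicates 1 and 3 at position 2. A position difference common to the diets took a median of 3.98% of the squared deviations in the variable regions and 4.19% in all regions. Its share of the degrees of freedom is 14.3%. On slide 1, ERD replicate 2 exceeded ERD replicate 1 in 376 of the 440 regions (85.5%), with a median difference of 0.72, against a median of 0.02 over all regions. On slide 2, ERD replicate 4 exceeded ERD replicate 3 in 358 regions (81.4%), with a median difference of 0.44. On slide 5, STD replicate 2 exceeded STD replicate 3 in 386 regions (87.7%), with a median difference of 0.56. These are arrays of the same diet in regions selected on such differences, so the values describe the selected regions and are no test of slide effects. On slide 3, where both arrays were BLD, the median difference was 0.03 and BLD replicate 2 was the higher in 249 regions. Differences between slides took a median of 28.8% of the squared deviations in the variable regions and 52.6% in all regions, where 42.9% is the share of the degrees of freedom. Without ERD replicate 1 that median was 55.4% in the variable regions, without STD replicate 3 it was 46.3%, without ERD replicate 2 it was 43.6%, and without STD replicate 1 it was 11.7%. Leaving an array out also changes the share of the degrees of freedom, so these values cannot be set against 42.9%. No median over all regions was taken for them.

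The choice of arrays and of background correction changed which regions were taken. Without ERD replicate 2, 345 of the 440 regions were taken again, and without STD replicate 2, 359 were. Without both arrays, an alternative added after the data were seen, 249 were taken again and the share in the highest 10% by level was 35.5%. With normexp background correction in place of the processed intensities, 65 of the 440 were taken again, 26.1% of the regions then taken were of high level, and 0.682% had the order of arrays, compared with 4.47% of all regions. With quantile normalisation, which gives all arrays the same distribution of ratios, 303 were taken again, 43.9% of those taken were of high level and 37.7% had the order. The normexp alternative also replaced the processed intensities by median spot signals, so which of these steps moved the values cannot be told apart. Loess within arrays gave 70.0% of high level and 66.8% with the order.

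The region with the largest SD, 0.649, was a cluster of 3 probes at chr19:29700840-29701061. Its log2 ratios were 0.18, 1.48, 0.17 and 0.93 in ERD, 1.05, 1.24 and 1.30 in BLD, and -0.34, 1.47 and 0.26 in STD. ERD and STD each spanned the range from near 0 to the top of the BLD values, and the 3 BLD arrays were all high. The next, 4 probes at chr17:27571773-27572195 with an SD of 0.610, gave 0.32, 1.47, 0.38 and 1.01 in ERD, 0.86, 1.03 and 0.82 in BLD, and -0.02, 1.41 and -0.30 in STD. It had the same high and low arrays as the first. So did 4 probes at chr17:23747282-23747634 (SD 0.545), with -0.04, 1.17, 0.09 and 0.94 in ERD, 0.74, 0.84 and 0.42 in BLD, and -0.11, 1.02 and -0.17 in STD.

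Of the 10 regions with the largest SDs, 8 were in the highest 10% by level. At chr7:25370538-25370969 (4 probes, SD 0.562) the log2 ratios were -0.23, 1.03, 0.16 and 1.03 in ERD, 0.68, 0.66 and 0.74 in BLD, and 0.19, 1.56 and 0.55 in STD. The BLD arrays lay close together there, and the ERD arrays lay both far below and above them. At chr8:124805221-124805888 (4 probes, SD 0.562) the values were -0.16, 0.70, -0.10 and 0.68 in ERD, 1.10, 0.33 and 0.54 in BLD, and -0.47, 1.02 and 0.67 in STD. Here STD replicate 3 was among the high arrays, and the BLD arrays also differed. At chr11:75328897-75329105 (3 probes, SD 0.532) STD replicate 2 reached 2.02, while the other 9 arrays lay between 0.23 and 0.99, and STD took 82.9% of the squared deviations.

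The region with the highest mean level of all 8809, 1.29, was among the variable ones. It was the cluster of 3 usable probes at chr9:122075655-122076150, with log2 ratios of 0.57, 1.23, 0.63 and 1.28 in ERD, 0.92, 0.83 and 1.39 in BLD, and 1.01, 2.59 and 2.40 in STD. STD replicates 2 and 3, which share a slide, were both above every other array. STD replicate 3 was low in most variable regions of high level but its ratio was not in this one. Its Cy5 intensity here, 0.55, was the lowest of the 10 arrays. Its Cy3 intensity was -0.85, with the other arrays between -0.24 and 0.24, so its high ratio went with a low input. This array also had the smallest median absolute deviation before scaling, 0.161, so scaling enlarged its ratios most.

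**Figure D5:**
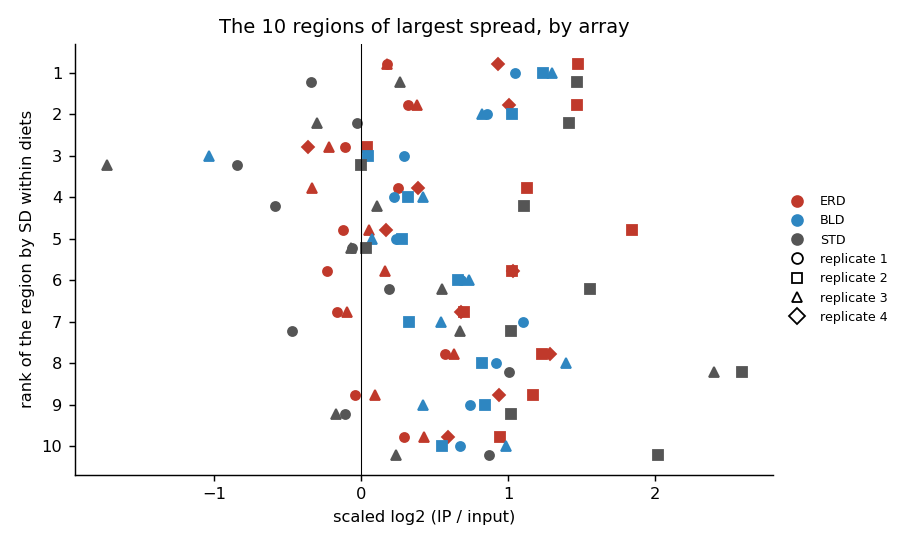
Scaled log2 ratios (horizontal axis) of the 10 regions with the largest SD within diets, from SD 0.649 at rank 1 to 0.532 at rank 10 (vertical axis); colour stands for diet and symbol for replicate, and each point is 1 array. In 8 of the regions ERD replicate 2 or STD replicate 2 is the highest array, the exceptions being the third, where BLD replicate 1 is highest at 0.29, and the seventh, where BLD replicate 1 is highest at 1.10.

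Not all of the 10 followed the common order. The lowest-lying one, 3 probes at chr9:44688817-44689373 (SD 0.608, mean level -0.39), had log2 ratios of -0.11, 0.04, -0.22 and -0.36 in ERD, 0.29, 0.05 and -1.04 in BLD, and -0.85, 0.00 and -1.73 in STD. ERD varied little there, and the low values were those of BLD replicate 3 and STD replicates 1 and 3. Its Cy3 SD of 0.34 exceeded its Cy5 SD of 0.28, unlike most of the variable regions.

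Longer clusters, in which more probes are averaged, showed the pattern too. The 10 probes at chr6:48388048-48389240 (SD 0.474) averaged 0.42, 1.24, 0.44 and 1.37 in ERD, 0.93, 0.78 and 0.88 in BLD, and 0.54, 1.75 and 0.86 in STD. The 12 probes at chr12:109153539-109155612 (SD 0.427) averaged 0.55, 1.34, 0.52 and 1.25 in ERD, 0.82, 0.89 and 0.66 in BLD, and 0.40, 1.41 and 0.41 in STD. In both, ERD replicates 2 and 4 and STD replicate 2 exceeded every BLD array, and ERD replicates 1 and 3 were below every BLD array. The 9 probes at chr10:80296983-80298766 (SD 0.389) gave BLD values of 0.78, 0.81 and 0.79, with 0.37, 1.18, 0.47 and 0.92 in ERD and 0.37, 1.36 and 0.42 in STD. The 8 probes at chr15:88897983-88899141 (SD 0.387) gave 0.23, 1.23, 0.45 and 0.92 in ERD, 0.81, 0.82 and 0.73 in BLD, and 0.19, 0.94 and 0.11 in STD, the same order again.

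Few probes per region were common among the variable regions. Of the 440, 250 (56.8%) rested on 3 probes, compared with 36.0% of all regions, and the median SD over all regions fell from 0.17 at 3 probes to 0.10 at over 10. The share taken was 7.88% of regions with 3 probes, 4.38% with 4, 3.15% with 5, 2.5% with 6 to 7, 1.93% with 8 to 10 and 3.07% with over 10. When the 5% was taken within each of these classes, 349 of the 440 were taken again and 76.2% of those taken were of high level. Variable regions were shorter, with a median span of 415 bp against 558 bp, and their probes had the same median length, 45 nucleotides.

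Along the genome, 18 variable regions lay in 9 pairs of neighbours within 10 kb of each other. Of the 130 variable regions whose nearest region lay within 10 kb, 18 (13.8%) had a variable one there, beside 6.64% counted in the same way over all regions and 10.9% over the non-variable regions of the highest 10% by level. When the rule was applied without ERD replicate 1, 8 regions had such a neighbour. A pair at chr17:39980411-39981048 (3 probes, SD 0.605) and chr17:39981533-39983633 (15 probes, SD 0.403) was the brightest of all 8809 regions in both channels, 2.89 and 2.80 above the array median in log2 Cy5 and 2.54 and 2.66 in log2 Cy3. The first gave 0.25, 1.13, -0.33 and 0.38 in ERD, 0.22, 0.32 and 0.42 in BLD, and -0.59, 1.11 and 0.11 in STD. Its SDs in Cy5 and Cy3 were 1.10 and 0.71, so here the input channel varied as well. The second gave -0.37, 0.49, -0.04 and 0.72 in ERD, 0.04, -0.02 and -0.23 in BLD, and -0.22, 0.55 and -0.12 in STD. ERD replicate 2 and STD replicate 2 were above every BLD array in both, and ERD replicate 4 in the second, whose mean level was only 0.08. Whether this sequence is present in many copies, and the part of that in its values, was not tested.

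A second pair lay at chr14:58310348-58310582 (SD 0.486) and chr14:58318497-58318874 (SD 0.476). The first gave 0.32, 1.60, 0.30 and 0.75 in ERD, 0.39, 0.98 and 1.00 in BLD, and 0.26, 0.92 and 0.22 in STD. The second gave 0.33, 1.60, 0.36 and 0.62 in ERD, 0.62, 0.72 and 1.10 in BLD, and 0.96, 1.60 and 0.73 in STD. In both, ERD replicate 2 was the highest array of ERD by a wide margin. A pair at chr12:113412125-113412499 (SD 0.484) and chr12:113413797-113414059 (SD 0.396) differed in which ERD array was highest, with 1.34 on replicate 2 in the first and 1.30 on replicate 4 in the second.

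By chromosome, the share of regions that were variable was highest on chromosome 17, with 39 of 452 (8.63%), and chromosome 7, with 53 of 664 (7.98%). It was lowest on chromosome 14, with 6 of 311 (1.93%), and chromosome 16, with 6 of 267 (2.25%). Chromosomes 17 and 7 also had many regions of high level, 13.9% and 16.3% of their regions, against 7.72% and 4.49% on chromosomes 14 and 16.

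The 122 variable regions outside the highest 10% by level differed from the rest. Of these, 12 (9.84%) had the order of arrays described above, beside 6.7% of the 7928 regions outside the highest 10%, a difference that was not tested. STD replicate 1 carried the largest deviation in 55 of the 122, and was above its diet's mean in 41 of those 55, and STD replicate 3 in 25. STD took a median of 61.3% of their squared deviations, and differences between slides took 62.1%, compared with 28.8% over all 440 regions. Of the 122, 94 (77.0%) rested on 3 probes. At chr2:34726331-34726927 (3 probes, SD 0.435) the STD arrays gave -0.87, 0.44 and -0.95, while the 4 ERD arrays lay between -0.20 and 0.10 and the 3 BLD arrays between -0.18 and 0.13. The other 7 arrays thus lay between the high and the low STD arrays.

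A few regions varied in BLD. At chr8:13757538-13757851 (3 probes, SD 0.419) the BLD values were -0.09, 0.25 and -1.16, beside 0.20, 0.21, -0.08 and -0.16 in ERD and -0.51, -0.66 and -0.77 in STD. At chr17:35293254-35293439 (3 probes, SD 0.384) BLD gave 0.74, 0.57 and -0.38, ERD gave 0.57, 0.89, 0.46 and 0.26, and STD gave -0.08, -0.40 and -0.51. At chr7:13556484-13556763 (3 probes, SD 0.412) BLD gave 0.31, 0.88 and -0.40, ERD gave 0.54, 0.97, 0.34 and 0.62, and STD gave -0.41, 0.16 and -0.19. The spread was not mainly in the immunoprecipitated channel in all of these. The Cy3 SD exceeded the Cy5 SD at the chromosome 8 region (0.45 and 0.40) and at the chromosome 7 region (0.48 and 0.29), while the chromosome 17 region had 0.25 and 0.37. At the chromosome 8 region the centred log2 Cy5 intensity was -0.67, -0.42 and -0.53 on BLD replicates 1 to 3. The Cy3 intensity there was -0.64, -0.71 and 0.20. The input of BLD replicate 3 was thus apart from both other BLD arrays, but STD replicate 1 on the same slide had 0.38. The remaining arrays lay between -0.91 and -0.51 in Cy3. At the chromosome 7 region these arrays of slide 4 had the highest Cy3, 1.62 and 1.56, with the others between 0.05 and 1.09. At the chromosome 17 region they had 0.61 and 0.70, below 1.25 on STD replicate 3. In all 3, BLD replicate 3, which shared slide 4 with STD replicate 1, lay within or below the range of the STD arrays and apart from both other BLD arrays. The design places BLD replicate 3 on a slide without other BLD arrays, so slide and array cannot be told apart within BLD. The part of the slide in these input values was not tested.

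In 51 of the 440 regions (11.6%, against 9.31% of all regions) 1 array carried over 50% of the squared deviations, and in 26 of the 51 it was ERD replicate 2. In all, 5 of the 440 regions held a saturated spot, each on ERD replicate 2. At chr11:8524378-8524877 (4 probes, SD 0.601) the region's value was 1.84 on ERD replicate 2 and -0.12 to 0.28 on the other 9 arrays. The saturated probe alone had a log2 ratio of 6.76 there and -0.45 to 0.23 elsewhere. At chr4:40800489-40801591 (7 probes, SD 0.414) ERD replicate 2 gave 1.11 and the saturated probe 7.15, and at chr13:54794918-54795616 (5 probes, SD 0.448) it gave 1.15 and 6.08. At chr1:179372004-179372541 (3 probes, SD 0.473) ERD replicate 2 gave 1.19 and the saturated probe 2.70. In each of these 4 regions the saturated probe was the highest of the region on that array, and leaving saturated spots out kept 436 of the 440 regions in the set. In the last of the 5, at chr11:97521238-97521972, the saturated spot was also flagged as an outlier and had been dropped.

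Diets were compared with limma over all 8809 regions and all 10 arrays. With Benjamini-Hochberg adjustment 0 regions passed 0.05 in any of the 3 comparisons, a background of 0%. Without STD replicate 1, 9 regions passed between ERD and STD, and without ERD replicate 2, BLD replicate 3 or STD replicate 2 it was 1, 2 and 2. Between BLD and STD 1 passed without BLD replicate 3 and 1 without STD replicate 2. The lowest adjusted p among the 440 was 0.148 between ERD and STD, 0.28 between BLD and STD and 0.584 between ERD and BLD. The rule selected regions for a large residual SD, which is the denominator of this test, so the counts that follow only describe. Between ERD and STD 50 of the 440 (11.4%) had an unadjusted limma p under 0.05, beside 15.2% of all regions. Of these, 48 were higher and 2 lower in ERD, while over all regions 7.46% were higher and 7.76% lower. Between BLD and STD 32 of the 440 (7.27%) did so, beside 11.6% of all regions, with 27 higher and 5 lower in BLD where 6.91% and 4.71% of all regions were. Between ERD and BLD the count was 10 (2.27%), beside 8.04% of all regions, with 7 higher and 3 lower in ERD where 3.45% and 4.59% of all regions were.

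These counts changed with single arrays, and so did their order against all regions. Between ERD and STD, 131 of the 440 (29.8%) were past the unadjusted threshold without STD replicate 2, beside 15.1% of all regions, and 82 (18.6%) without ERD replicate 1, beside 14.2%. Without STD replicate 1 there were 92 (20.9%, beside 20.9%), and without STD replicate 3 there were 23 (5.23%, beside 9.06%). The share among variable regions was thus above, at or below that of all regions, depending on the array left out. Leaving out STD replicate 2 gave 117 between BLD and STD (26.6%, beside 13.0% of all regions), and leaving out ERD replicate 2 gave 69 (15.7%, beside 12.2%). Leaving out BLD replicates 1, 2 or 3 gave 12, 11 or 52 (2.73%, 2.5% or 11.8%, beside 6.02%, 7.2% or 15.7%). Between ERD and BLD there were 45 without ERD replicate 2 (10.2%, beside 10.3%), and the shares without any other array stayed below those of all regions. The counts were 28 without STD replicate 1 (6.36%, beside 10.5%) and 19 without STD replicate 3 (4.32%, beside 9.37%). There were 16 without ERD replicate 4 (3.64%, beside 8.17%) and 5 without BLD replicate 1 (1.14%, beside 5.42%). With normexp, which also takes other regions, the 3 counts were 0, 10 and 41 (0%, 2.27% and 9.32%), beside 0.761%, 2.3% and 4.7% of all regions. The share between ERD and BLD was then above that of all regions. All 3 comparisons share arrays and 1 estimate of the spread.

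The median limma difference over the 440 regions was 0.16 between ERD and STD, 0.14 between BLD and STD and 0.01 between ERD and BLD, against 0.01, 0.02 and -0.01 over all regions. The median standard error of a region was 0.22, 0.24 and 0.22, against 0.11, 0.12 and 0.11 over all regions, as follows from selecting regions on their spread. The ranges of both diets were fully separate in 18 of the 440 regions between ERD and STD, 29 between BLD and STD and 13 between ERD and BLD, which is 4.09%, 6.59% and 2.95%, beside 14%, 15.5% and 11.4% of all regions. Averaged over arrays, the median level of the 440 regions was for ERD 0.61 ± 0.37 (SD, n = 4), for BLD 0.61 ± 0.06 (SD, n = 3) and for STD 0.42 ± 0.30 (SD, n = 3). The difference between ERD and STD was 0.19 (exact two-sided permutation p = 0.429, 0.643 adjusted over the 3 pairs). Between BLD and STD it was 0.20 (exact permutation p = 0.4, adjusted 0.643) and between ERD and BLD it was -0.0028 (exact permutation p = 1). None of these exceeded the spread between arrays, but that spread is large by selection, so the test says little about the level of these regions in each diet. Without 1 array the difference ran from 0.04 (ERD replicate 2) to 0.37 (STD replicate 2) between ERD and STD, and from 0.10 (STD replicate 3) to 0.37 (STD replicate 2) between BLD and STD. The smallest p that the exact test allows is 0.0286 for 4 arrays against 3 and 0.1 for 3 against 3.

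Of the variable regions, the lowest p between ERD and STD belonged to 3 probes at chr7:52968623-52969012 (SD 0.309). Their log2 ratios were 0.58, 1.14, 0.50 and 1.02 in ERD, 0.43, 0.66 and 0.16 in BLD, and 0.16, 0.10 and -0.47 in STD. All 4 ERD arrays exceeded all 3 STD arrays, the difference was 0.88 ± 0.19 (SE), and it did not pass after adjustment (limma adjusted p = 0.148). The region of chromosome 17 that varied in BLD, at 35293254 to 35293439, had the next lowest p of those higher in ERD, with a difference of 0.87 ± 0.23 (SE) between ERD and STD (limma adjusted p = 0.17). Only 2 regions were lower in ERD than in STD at an unadjusted p under 0.05. One was chr5:34278835-34279363 (3 probes, SD 0.348), with -0.68, -0.46, -1.06 and -0.69 in ERD, -0.74, -0.33 and -0.15 in BLD, and -0.41, 0.14 and 0.57 in STD. The ERD mean minus the STD mean was -0.83 ± 0.21 (SE; limma adjusted p = 0.168). The other was the region of highest level, at chr9:122075655-122076150, where the difference was -1.07 ± 0.32 (SE; limma adjusted p = 0.2). In both, 2 STD arrays were high and STD replicate 1 was the lowest of STD.

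Between BLD and STD the lowest p was that of 3 probes at chr8:46108836-46109388 (SD 0.336). BLD gave 1.28, 1.01 and 0.87, STD gave -0.07, 0.19 and 0.01, and ERD gave 0.34, 1.35, 0.36 and 0.75. The BLD and STD arrays did not overlap and differed by 1.01 ± 0.22 (SE; limma adjusted p = 0.28). The ERD arrays all lay above the STD arrays, and ERD replicates 1, 3 and 4 lay below the BLD arrays. This region of chromosome 8 was dim in both channels. Counted from the brightest of all regions, it had rank 8807 by Cy3 and 8604 by Cy5. The part of the low intensity in its values was not tested. At chr17:28024335-28024622 (3 probes, SD 0.319) BLD gave 1.01, 0.81 and 0.80 and STD gave 0.20, 0.55 and -0.08, which differ by 0.65 ± 0.21 (SE; limma adjusted p = 0.341). That region was also dim in the input, with rank 8542 by Cy3 and 5479 by Cy5. In the other direction, 3 probes at chr7:114353404-114353800 (SD 0.333) gave -0.09, 0.17 and 0.25 in BLD and 0.54, 1.08 and 0.72 in STD, with a mean difference of -0.67 ± 0.22 (SE; limma adjusted p = 0.341).

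Between ERD and BLD, 3 probes at chr4:136913085-136913570 (SD 0.338) gave 0.40, -0.12, 0.31 and -0.09 in ERD and -0.88, -0.56 and -0.23 in BLD. The 2 diets did not overlap there, and the difference was 0.68 ± 0.20 (SE; limma adjusted p = 0.584). The next was the region of chromosome 13 with the saturated spot, from 54794918 to 54795616. Lower in ERD were chr13:34838970-34839325 (3 probes, SD 0.328), with 0.28, 1.08, 0.51 and 1.04 in ERD and 1.27, 1.16 and 1.33 in BLD, and chr8:98239992-98240254 (3 probes, SD 0.320), with -1.03, -0.11, -0.46 and -0.21 in ERD and -0.09, 0.03 and 0.03 in BLD. Their differences were -0.53 ± 0.20 (SE; limma adjusted p = 0.588) and -0.44 ± 0.20 (SE; limma adjusted p = 0.602). At chr8:98239992-98240254 the ERD and BLD arrays did not overlap, by a narrow margin.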

How the data were processed

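DNA methylation was measured by MeDIP-chip on 10 Agilent 2-colour arrays of mouse CpG islands, in 3 diet groups of 4, 3 and 3 arrays. The intensity of each spot came from Agilent Feature Extraction, version 10.7.3.1 per the file headers and 9.0 per the submitters' processing notes. The deposited processed intensity was already background-subtracted and scaled linearly between dyes, per the file headers. The authors' value table, as deposited, holds the log10 ratio of Cy5 over Cy3, which differed from that of the scanner files by at most 0.00498. It has no further centring, with array medians from -0.00795 to 0.00095.

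From these files the log2 ratio of processed Cy5 over Cy3 was computed per probe. Control spots and spots flagged as outliers were left out, saturated spots were kept, and 51889 probes well above background in both channels on all 10 arrays were used. Arrays were centred on their median and scaled to a common median absolute deviation of 0.278. The number of arrays limits the precision. Diet differences were fitted in limma (version 3.58.1, R version 4.3.3; lmFit with eBayes, two-sided, no covariate, Benjamini-Hochberg over 8809 regions), and measures with 1 value per array were tested by exact permutation. The fit was tested on simulated data.

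The 440 regions, the lists and the tests were chosen with earlier results of these data known. Named regions were the 10 with the largest SD, the 5 largest with 8 or more probes, 3 per diet with the largest share of squared deviations in that diet, the 3 on each side of the threshold, 2 per diet pair and direction with the lowest limma p, and the 3 longest runs of neighbours. Others named in the text were chosen after their values were seen. Alternatives covered background correction, normalisation, filters, region definition, the threshold, slide and single arrays. Normexp was run on median spot signals in place of the mean signals planned. All arrays were scanned on the same day, so scan date gave no batch. Coordinates are on mm9, per the file headers, and were not converted, and no gene list was tested.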

Additional observations from a re-analysis of the deposited data

Results flagged for a closer look

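Among the named regions, 39 groups of 4 arrays were checked for an array far from the others by Dixon's criterion at 95%, and 3 held one, in each case ERD replicate 2 among the 4 ERD arrays. About 1 group in 20 is expected to exceed this by chance, and 17 of the 440 variable regions (3.86%) did so beside 4.84% of all regions. At chr11:8524378-8524877 ERD replicate 2 had a log2 ratio of 1.84, while the other ERD arrays gave -0.12, 0.05 and 0.17. At chr4:40800489-40801591 it had 1.11, against -0.08, -0.05 and -0.16. Both regions hold a saturated spot on that array. At chr10:82162234-82162617 (3 probes, SD 0.439) it had -0.12, against 0.04, 0.03 and 0.05, which is a small difference in a region whose spread lay in STD, with -0.30, -0.49 and 0.99.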

How the results depend on the processing

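No paired analysis was possible because the replicate numbers were given in accession order and the labels tie no arrays of different diets together. Of the 440 regions, those taken again numbered 65 with normexp, 217 with all non-control probes, 285 with probes well above background on at least 8 arrays, 92 with at least 5 probes, 220 in the top 2.5%, 166 when taken within level classes, and 249 without both ERD replicate 2 and STD replicate 2. Leaving out 1 array gave 345 to 414. The 18 regions with a variable neighbour became 8 with normexp, 10 with quantile normalisation, 31 without scaling, 47 with all probes, 42 with probes bright on at least 8 arrays, 4 with at least 5 probes, 8 in the top 2.5%, 54 in the top 10%, 7 within level classes, 8 without both arrays, and 8 to 25 without 1 array. The median share of squared deviations between slides, 28.82%, was 50.29% with normexp, 49.03% with quantile normalisation, 59.17% within level classes, 60.04% without both arrays and 11.66% to 55.41% without 1 array. Leaving arrays out also changes the share of the degrees of freedom that slides take, so a changed value there need not be a changed difference between slides. Regions past the threshold between ERD and STD numbered 1 with loess, 3 with quantile normalisation, 1 without scaling and 0 to 9 without 1 array, and between BLD and STD 0 to 1 without 1 array. The difference in median level between BLD and STD was -0.3137 with normexp. Between ERD and BLD it turned from -0.0028 to 0.5213 with normexp, 0.009318 with loess, 0.02734 with quantile normalisation, 0.08114 without scaling, 0.00352 with outlier spots kept, 0.0258 in the top 10% and 0.04202 within level classes, and ran from -0.1577 to 0.1035 without 1 array. The causes of these changes were not tested. The slide shares and level differences describe the regions taken in each setting, except where arrays were left out, when the 440 regions were kept. The limit to the top 2.5% or to at least 5 probes leaves fewer regions by construction. The spread of left-out probes was not computed for quantile normalisation, for changed probe filters or region definitions, and the spread by channel only for other thresholds, classes and arrays left out. Centring each probe leaves no level to compare. With the slide as a random block (correlation 0.108) 0 regions passed. In that fit 42, 25 and 8 of the 440 (9.55%, 5.68% and 1.82%) had an unadjusted limma p under 0.05, beside 12.17%, 10.3% and 7.03% of all regions.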
